A study of Homo sapiens with 6 samples.

Results

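Human osteoblastic cells given extra wild-type histone H3.3 (H3.3-WT) were compared with cells given the empty vector (EV), the pair of groups that separates added histone from the act of transduction alone. The comparison used 4 of the 6 RNA libraries of the series, 2 per group. The 2 H3.3-G34W libraries entered only alternative estimates of spread and the values of a few genes. The cells were hFOB 1.19, osteoblast-like cells of human fetal origin that carry a heat-sensitive form of the SV40 large T protein and were kept at 34 °C. They were transduced with a lentiviral vector, sorted on dTomato and collected 15 days after transduction. The transgene was an HA-tagged Drosophila H3.3 cDNA, which has no model of its own among the human genes. The size of the added dose could therefore not be read from the table. Whether some of its reads were counted in the human H3.3 genes was not tested. Groups were assigned from the library titles, whose group names are those of the deposited columns. The genotype field gave G34W and WT the other way round, and SCUBE3, which bears on this, is given below. Poly(A)-selected directional libraries were made in duplicate. In general the study defined replicates as biological, meaning separate wells of 1 experiment, and the library records did not say more on these duplicates. The p-values below therefore measure the spread between these samples, which may be technical.

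H3.3 is the replacement variant of histone H3, made throughout the cell cycle from the genes H3-3A and H3-3B and placed on chromatin independently of DNA replication. The HIRA complex deposits it at active genes and regulatory elements, and DAXX with ATRX deposits it at telomeres and repeats. The canonical histones H2A, H2B, H3, H4 and H1 are instead made from clustered genes in S phase, and most of their mRNAs end in a stem-loop without a poly(A) tail.

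The deposited values were normalised estimated counts, here called signal, for 35639 genes. EV replicate 1 was listed at 0 for 28688 of them and had a total of 157595150, against totals of 41985190 in EV replicate 2 and 40778682 and 48024590 with H3.3-WT. Of the genes analysed, 99.8% of those on chromosomes 10 and 11 but 33.0% of those elsewhere were above 0 in EV replicate 1. EV replicate 2 therefore served alone as the genome-wide control for the 13163 genes with a mean signal over 50 across it and both H3.3-WT libraries. EV replicate 1 was used for 1251 genes of chromosomes 10 and 11, 507 and 744 of them, after division by its median ratio to EV replicate 2 there, 23.8.

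The 2 H3.3-WT libraries differed more from each other than either did from the control. The median absolute log2 difference was 0.21 between H3.3-WT replicate 1 and EV replicate 2, 0.26 between H3.3-WT replicate 2 and EV replicate 2, and 0.31 between the H3.3-WT replicates. A difference past 1.5-fold was seen for 11.9%, 16.6% and 23.1% of genes in the same 3 pairs. On chromosomes 10 and 11 the scaled EV replicates lay 0.18 apart and the H3.3-WT replicates 0.32 apart, by the same median. The standard deviations of these 2 differences were close, at 0.53 and 0.54. From scaled EV replicate 1 the H3.3-WT replicates lay 0.25 and 0.29 away there, with standard deviations of 0.59 and 0.68. The median gene stood at -0.04 in H3.3-WT replicate 1 and 0.10 in replicate 2 relative to EV replicate 2, and list medians below are read against these values.

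Osteoblast-lineage matrix transcripts were abundant in EV replicate 2 and both H3.3-WT libraries, and later osteoblast genes ranged widely. COL1A2, a chain of type I collagen, was 111335 in EV replicate 2 and 98769 and 90034 with H3.3-WT, and SPARC, a bone matrix glycoprotein, was 72998, 76069 and 79359 in the same order. RUNX2, the osteoblast lineage transcription factor, was 573, 387 and 429.7. All 3 libraries were high in both matrix genes, and RUNX2 was lower in both H3.3-WT libraries. SP7, a later osteoblast transcription factor, was 1.57, 4.39 and 6.03, and IBSP, bone sialoprotein, was 2.50 in EV replicate 2 and 0 in both H3.3-WT libraries. SPP1, osteopontin, was 413, 171 and 544. SP7 and IBSP were near 0 in all 3 libraries, and SPP1 was higher, with the control between the H3.3-WT values. The sum of 10 osteoblast markers was 222885, 205049 and 216633. Markers of other cell types also differed between libraries, with sums given in the same order. Epithelial markers summed to 47360, 36497 and 47138. Of the 6 analysed, 4 were below the control in both H3.3-WT libraries, against 24.7% of all genes analysed. Neural markers summed to 5420, 5416 and 9210, and skeletal muscle markers to 6524, 9370 and 4512. Chondrocyte markers summed to 2223, 1830 and 2152, with median log2 ratios of -0.88 and -0.02. In bulk RNA a smaller number of cells of a type and less RNA per cell cannot be told apart.

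The cell's own H3.3 genes lay near the control. H3-3A (ENSG00000163041, chr1:226061831-226072019) was 4237 in EV replicate 2 and 3793 and 4195 with H3.3-WT, and H3-3B (ENSG00000132475, chr17:75776434-75779779) was 23982, 25288 and 26980. H3-3A was highest in the control and H3-3B lowest in it, with limma log2 fold changes of -0.09 and 0.12. HIRA, the chaperone that carries H3.3 to active genes, was 2786 in EV replicate 2 and 1987 and 2139 with H3.3-WT. UBN2, a HIRA partner, was 335, 264 and 183. Both H3.3-WT libraries were below the control for these 2 genes, at log2 fold changes of -0.43 with a standard error of 0.31 and -0.60 with a standard error of 0.51. The other HIRA partners lay closer: UBN1 was 4843, 4183 and 4754, and CABIN1 was 3053, 2671 and 2892. In the other deposition route ATRX, its chromatin remodeller, was 1024, 949 and 1106, and DAXX, its chaperone, was 1907, 1928 and 2536, with a high value in H3.3-WT replicate 2 only. DAXX lies in the MHC region, whose genes are classed below as likely to share reads with another model. Of 22 H3.3 genes and deposition factors analysed, 7 were above EV replicate 2 in both H3.3-WT libraries and 7 below in both, against 29.6% and 24.7% of all genes, and 0 passed 1.5-fold in both.

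Genome-wide, limma with Benjamini-Hochberg adjustment called 1 of 13163 genes higher in H3.3-WT at an adjusted p under 0.05, or 0.0076%, and 0 lower, with 76 higher and 79 lower at an unadjusted p under 0.05. With 1 control library the spread in this fit comes from the H3.3-WT pair alone, and EV replicate 2 is assumed to vary as that pair does. The single call was RPL3P4 (ENSG00000232573, chr14:98972823-98973301), a pseudogene of the ribosomal protein gene RPL3. It was listed at 0 in EV replicate 2 and at 1116 and 759 with H3.3-WT, with a limma log2 fold change of 9.85, a standard error of 0.73 and a Benjamini-Hochberg adjusted p of 3.09e-06. In the H3.3-G34W libraries RPL3P4 was 19.5 and 703, apart within 1 group. That pair was also far apart for DNMT3B, at 13081 and 395, and for CDH1, at 2104 and 64.9. With the spread pooled over that pair, the limma Benjamini-Hochberg adjusted p of RPL3P4 was 0.0831. The single call was then PPP1R11 instead, at 0.0292. Added to its parent RPL3, RPL3P4 came to 42691 in EV replicate 2 and 37967 and 47221 with H3.3-WT. RPL3 is much the larger part of that sum, so the sum cannot show whether reads moved between them. Because the control value is 0, the size of the fold change is set by the pseudocount, and the call rests on 1 control value. The next lowest adjusted p from limma was 0.0637.

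Fold counts gave similar numbers in each direction. Past 1.5-fold in both H3.3-WT libraries, 242 genes (1.84%) were higher than EV replicate 2 and 272 (2.07%) were lower. Without a size limit, 3899 genes (29.6%) were above the control in both libraries and 3245 (24.7%) were below it in both. These shares rest on a single control library, whose own departure moves a gene the same way in both ratios. The limit on the mean also admits genes through the side on which they are high, so for genes under 50 on the other side a large distance is partly a matter of selection. These shares are the background for the functional lists below, in which every Benjamini-Hochberg adjusted p from limma was above 0.05.

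**Figure D1:**
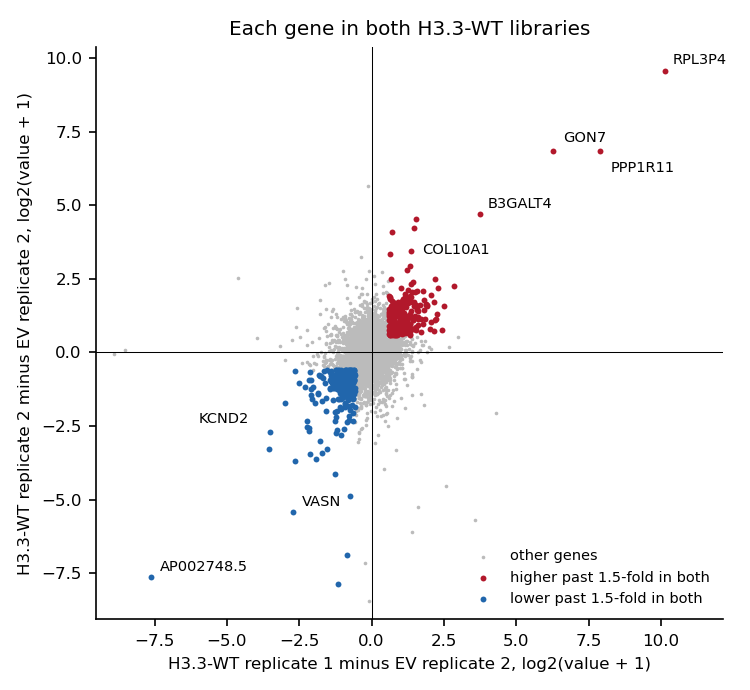
Log2 difference of each gene from EV replicate 2 in the 2 H3.3-WT libraries, Y-linked genes left out. Past 1.5-fold in both libraries were 242 genes higher and 272 lower.

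Histones, ribosomal proteins and the respiratory chain were the lists with the largest shares above the control in both H3.3-WT libraries. Of 43 replication-dependent and linker histone genes, 35 were above EV replicate 2 in both H3.3-WT libraries and 1 was below in both, against 29.6% and 24.7% of all genes. Their medians were 0.16 and 0.31, beside -0.04 and 0.10 for all genes, and 0 of the 43 passed 1.5-fold in both libraries. Summed over the list, the signal was 528194 in EV replicate 2 and 605670 and 652485 with H3.3-WT. The sum does not depend on how reads were divided between the near-identical members.

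The 4 histone genes furthest above the control lay at or somewhat past the list medians. H1-5, a linker histone (ENSG00000184357, chr6:27866792-27867588), was 39707 in EV replicate 2 and 50464 and 57835 with H3.3-WT, and H2AC13, an H2A gene (ENSG00000196747, chr6:27808173-27808667), was 20833, 26546 and 28487. H2AC6, a further H2A gene (ENSG00000180573, chr6:26124172-26124690), was 15976, 20122 and 21468, and H2BC8, an H2B gene (ENSG00000273802), was 9613, 12559 and 11951. In all 4 both H3.3-WT libraries were above the control, at limma log2 fold changes of 0.44, 0.40, 0.38 and 0.35 with standard errors of 0.39, 0.35, 0.34 and 0.32. DNA-replication genes did not share the position: of 46, 11 were above the control in both libraries and 15 below in both, with medians of -0.02 and 0.01. Since most histone mRNAs lack a poly(A) tail, their signal in poly(A)-selected libraries also depends on the tailed fraction and on the selection itself.

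Transcript length was a further property of this list. The median exon length of the histone genes was 0.511 kb, and among all genes under 1 kb, 41.6% were above the control in both libraries and 21.7% below in both, with medians of 0.04 and 0.17. Those 332 short genes include histone genes of this list, so their shares are not independent of it. Among genes of 8 kb and over the shares were 28.1% and 27% and the medians -0.05 and 0.07. By signal level, the share above in both was 27.2% for means of 50 to 500, 30% for 500 to 5000 and 32.9% over 5000, and the share below in both was 34%, 22.8% and 13.2%. The part of length and level in the histone values, and in those of the abundant ribosomal protein genes, was not tested.

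Histone promoters carried the letters of their class. TATAAA on either strand was found in 26 of 37 matched histone promoters (70.3%) against 12% of all 27305 promoters, and CCAAT on either strand in 31 (83.8%) against 35.7%. The 4 promoters of the genes named above are shown because those genes lay furthest above the control in the list, taken from GRCh38.p14 with RefSeq gene starts: H2AC13 at chr6:27807923-27808222 on the plus strand, H1-5 at chr6:27867539-27867838 on the minus strand, H2AC6 at chr6:26123922-26124221 on the plus strand and H2BC8 at chr6:26216639-26216938 on the minus strand. Capitals mark TATAAA and CCAAT and their reverse complements TTTATA and ATTGG. H1-5 has CCAAT matches without an exact TATAAA.
H2AC13: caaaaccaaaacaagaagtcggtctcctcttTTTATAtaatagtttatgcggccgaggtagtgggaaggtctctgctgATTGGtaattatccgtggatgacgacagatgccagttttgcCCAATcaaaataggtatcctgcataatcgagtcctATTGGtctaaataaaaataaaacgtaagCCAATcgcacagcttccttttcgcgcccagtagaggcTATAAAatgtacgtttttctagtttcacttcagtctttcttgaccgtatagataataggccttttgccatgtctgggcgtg
H1-5: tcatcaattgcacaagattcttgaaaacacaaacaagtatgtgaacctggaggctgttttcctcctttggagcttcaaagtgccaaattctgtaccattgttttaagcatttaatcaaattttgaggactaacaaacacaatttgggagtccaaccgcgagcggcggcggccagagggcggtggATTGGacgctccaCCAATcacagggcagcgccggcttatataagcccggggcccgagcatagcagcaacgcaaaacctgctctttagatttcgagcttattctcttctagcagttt
H2AC6: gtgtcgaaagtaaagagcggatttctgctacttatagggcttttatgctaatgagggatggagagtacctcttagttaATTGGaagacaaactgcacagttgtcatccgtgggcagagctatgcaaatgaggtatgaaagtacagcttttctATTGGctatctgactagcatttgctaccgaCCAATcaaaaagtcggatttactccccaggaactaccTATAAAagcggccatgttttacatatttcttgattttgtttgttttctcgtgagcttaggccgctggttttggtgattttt
H2BC8: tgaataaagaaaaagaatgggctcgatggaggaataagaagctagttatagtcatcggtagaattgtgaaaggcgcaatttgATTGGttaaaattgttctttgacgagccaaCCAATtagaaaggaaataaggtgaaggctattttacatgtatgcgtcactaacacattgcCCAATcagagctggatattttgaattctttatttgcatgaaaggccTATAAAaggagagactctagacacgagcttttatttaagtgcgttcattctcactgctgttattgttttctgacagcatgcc

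Ribosomal protein genes leaned the same way. Of 75, 50 were above EV replicate 2 in both H3.3-WT libraries and 0 below in both, with medians of 0.06 and 0.29 and sums of 1790897 in EV replicate 2 and 1873189 and 2238740 with H3.3-WT. RPL22, of the large subunit, was 6030, 7939 and 8308, and RPS14, of the small subunit, was 59141, 75227 and 79346. RPS25, of the small subunit and on chromosome 11, was 3895 and 3940 in the EV replicates and 5347 and 5758 in the H3.3-WT replicates. Both H3.3-WT libraries exceeded EV replicate 2 for these 3 genes, at log2 fold changes of 0.43, 0.39 and 0.49, and RPS25 also exceeded EV replicate 1. Of 6 ribosomal protein genes on chromosomes 10 and 11, 4 were above both EV libraries in both H3.3-WT libraries, where the share of all genes was 17.6% (220 of 1251). Genes that build ribosomes did not match them, with medians of -0.25 and 0.40 on opposite sides of the control.

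Nuclear-encoded respiratory chain genes followed, with 28 of 50 above the control in both libraries, 1 below in both, and medians of 0.07 and 0.17. UQCRQ, a complex III subunit, was 4677 in EV replicate 2 and 6267 and 6402 with H3.3-WT, and NDUFA6, a complex I subunit, was 1144, 1826 and 1378. COX7A2, a complex IV subunit, was 4000, 4944 and 4939. All 3 were above the control in both libraries, at log2 fold changes of 0.44, 0.47 and 0.30. Of 7 members on chromosomes 10 and 11, 4 were above both EV libraries. Mitochondrially encoded protein genes lay lower instead, 5 of 9 below in both and 0 above in both, with medians of -0.53 and -0.04 that place most of the distance in H3.3-WT replicate 1. MT-ND4, a complex I subunit, was 377 in EV replicate 2 and 253 and 254 with H3.3-WT, and MT-CO1, a complex IV subunit, was 3315, 2095 and 2981.

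**Figure D2:**
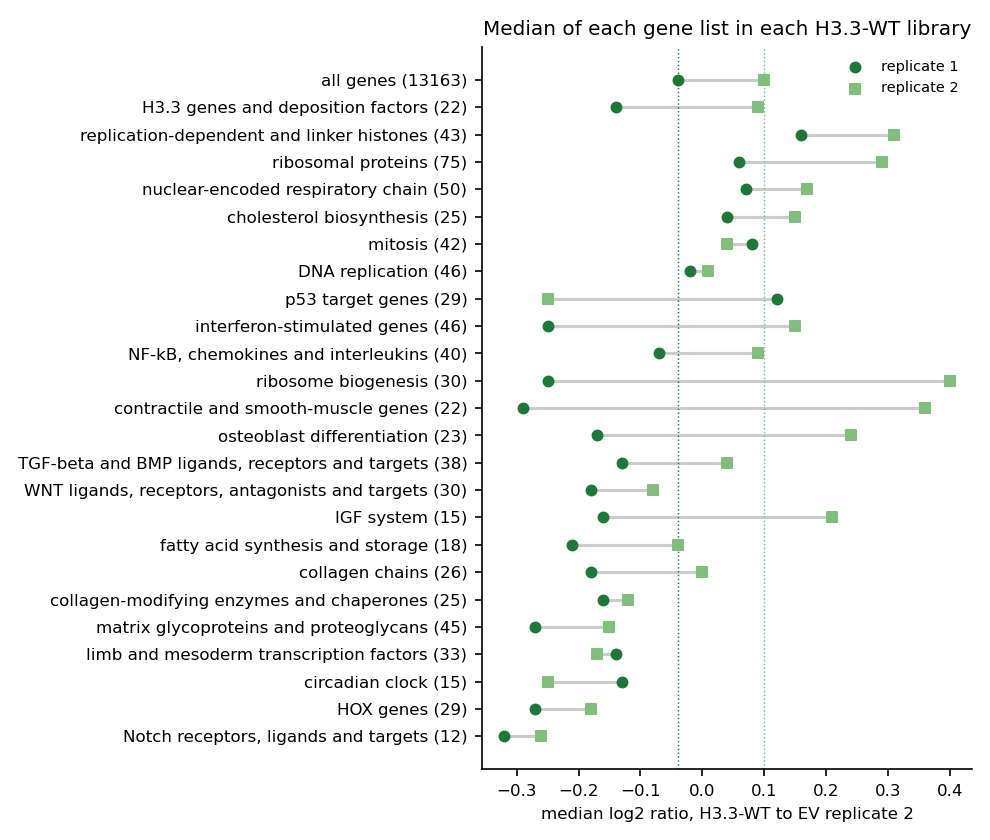
Median log2 ratio of each gene list to EV replicate 2 in the 2 H3.3-WT libraries, with the number of genes analysed in brackets and dotted lines at the medians of all genes. Histones stood at 0.16 and 0.31 and HOX genes at -0.27 and -0.18.

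HOX, limb, matrix glycoprotein and collagen lists had both medians below those of all genes. Of 29 HOX genes, 15 were below EV replicate 2 in both H3.3-WT libraries and 4 above in both, with medians of -0.27 and -0.18. Their summed signal was 10721 in EV replicate 2, between 9764 and 11148 with H3.3-WT, and among all genes with means of 50 to 500 the share below in both was 34%. HOXC10 (ENSG00000180818, chr12:53985146-53990279), which patterns the hindlimb and lumbar region, was 200.3 in EV replicate 2 and 74 and 106 with H3.3-WT. HOXB13 (ENSG00000159184, chr17:48724763-48728750), the most caudal gene of its cluster, was 226, 130 and 87.4. Both were lower past 1.5-fold in each H3.3-WT library, at log2 fold changes of -1.17 and -1.07 with standard errors of 0.67 and 0.63. The 4 on the other side were HOXA7, HOXA10, HOXA11 and HOXB7, all positional transcription factors, and HOXB7 was 975, 1261 and 1443.

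Limb and mesoderm transcription factors were placed similarly, with 14 of 33 below in both libraries, 4 above in both and medians of -0.14 and -0.17. Their summed signal was 34195 in EV replicate 2, between 28919 and 37150 with H3.3-WT. SHOX, a regulator of long-bone growth, was 144 in EV replicate 2 and 46.4 and 70.4 with H3.3-WT, and IRX3, a limb patterning factor, was 1124, 792 and 796. FOXF1, a factor of lateral mesoderm, was 53.1, 129 and 173. SHOX and IRX3 were lowest in the H3.3-WT libraries and FOXF1 was highest in them, at log2 fold changes of -1.32, -0.50 and 1.48.

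Among matrix glycoproteins and proteoglycans 19 of 45 were below in both libraries and 6 above in both, with medians of -0.27 and -0.15. With each gene averaged over the 2 libraries the median was nearer the control, at -0.08 beside 0.02 for all genes. Their summed signal of 511224 in EV replicate 2 lay between 400406 and 712458 in the H3.3-WT libraries. MATN2, a matrix adaptor protein (ENSG00000132561), was 2606 in EV replicate 2 and 1266 and 1518 with H3.3-WT. LUM, a proteoglycan that orders collagen fibrils, was 1093, 792 and 743, and LTBP3, which stores latent TGF-beta, was 2664 and 2360 in the EV replicates and 1486 and 1659 in the H3.3-WT replicates. Both H3.3-WT libraries were below EV replicate 2 for these genes, at log2 fold changes of -0.91, -0.51 and -0.59, and LTBP3 was also below EV replicate 1. VCAN, a large proteoglycan, lay on the other side at 1747, 2073 and 3241.

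Collagen-modifying enzymes and chaperones had 14 of 25 below in both libraries and 3 above in both, with medians of -0.16 and -0.12. LOXL3, a collagen cross-linking oxidase, was 5098 in EV replicate 2 and 3842 and 3377 with H3.3-WT, below the control in both. Collagen chains had 11 of 26 below in both, 5 above in both and medians of -0.18 and 0.00. COL8A2, a network-forming collagen, was 735, 489 and 293, and COL16A1, a fibril-associated collagen, was 6255, 4262 and 4695. COL10A1, the collagen of hypertrophic cartilage, went the other way at 76.6 in EV replicate 2 and 193 and 590.2 with H3.3-WT. The log2 fold changes were -0.96, -0.48 and 2.12, and the 2 H3.3-WT libraries were far apart for COL10A1. COL1A1, the main bone collagen chain, was 33754, 26425 and 43115, with the control between the H3.3-WT libraries.

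Notch and circadian lists were small and had medians below those of all genes. Of 12 Notch genes 4 were below in both libraries, or close to the share of all genes, and 2 above in both, with medians of -0.32 and -0.26. Their summed signal was 35221 in EV replicate 2, between 30894 and 42084 with H3.3-WT. HES1, a Notch target repressor, was 334 in EV replicate 2 and 159 and 218 with H3.3-WT, and NOTCH3, a receptor, was 500.4, 355 and 198. The receptor NOTCH1 was 3232, 3246 and 4179, so the H3.3-WT libraries were low for HES1 and NOTCH3 but not for NOTCH1. Of 15 circadian clock genes 7 were below in both and 1 above in both, with medians of -0.13 and -0.25. The 2 clock members on chromosomes 10 and 11 lay on the other side, with a median of 0.36 against EV replicate 1 and 1 of them above both EV libraries. CLOCK, the core activator, was 1502, 1040 and 989, and PER1, a core repressor, was 598, 416 and 435, both low in the H3.3-WT libraries.

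Osteoblast and BMP-pathway genes lay on both sides of the control. Of 23 osteoblast differentiation genes 8 were above in both libraries and 7 below in both, with medians of -0.17 and 0.24. Of 38 TGF-beta and BMP genes 7 were above in both and 11 below in both, with medians of -0.13 and 0.04, both under those of all genes. With each gene averaged over the 2 libraries, however, the median was 0.02, the same as for all genes. PTH1R, the parathyroid hormone receptor (ENSG00000160801, chr3:46877721-46903799), was 22.9 in EV replicate 2 and 82.7 and 80.4 with H3.3-WT. ALPL, the alkaline phosphatase of mineralising cells (ENSG00000162551, chr1:21508984-21578410), was 428, 245 and 236, and GDF6, a BMP-family ligand (ENSG00000156466), was 999, 486 and 374. PTH1R, under 50 in the control, passed the limit through its H3.3-WT values. PTH1R was high and ALPL and GDF6 were low in both H3.3-WT libraries, at log2 fold changes of 1.79, -0.83 and -1.23 with standard errors of 0.91, 0.48 and 0.40. BGLAP, osteocalcin, was below the expression limit and untested, at 5.55 in EV replicate 2 and 44.9 and 39.3 with H3.3-WT.

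WNT-pathway genes were below the control more often than above it: of 30, 10 were below in both libraries and 3 above in both, with medians of -0.18 and -0.08. With each gene averaged over the 2 libraries the median was -0.09, and -0.01 for genes with a mean above 10. The 6 members on chromosomes 10 and 11 had a median of 0.03 against EV replicate 1, with 1 above both EV libraries and 1 below both. LEF1, a nuclear factor of WNT signalling, was 31.2 in EV replicate 2 and 68.4 and 77.9 with H3.3-WT, and RYK, a WNT co-receptor, was 2817, 3463 and 3319. AXIN2, a WNT feedback gene, was 171, 103 and 89.2. LEF1, under 50 in the control, passed the limit through its H3.3-WT values. LEF1 and RYK were high and AXIN2 low in both H3.3-WT libraries, at log2 fold changes of 1.20, 0.27 and -0.83. FZD4, a WNT receptor on chromosome 11, was 792 and 561 in the EV replicates and 904 and 1060 in the H3.3-WT replicates, above both controls but past 1.5-fold only against EV replicate 2. Outside this list INSR, the insulin receptor and a member of the IGF list, was 146 in EV replicate 2 and 447 and 323 with H3.3-WT, high in both at a log2 fold change of 1.37.

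A few genes linked to bone resorption and giant cell tumour were read by name. SCUBE3, a secreted signalling protein, was 535 in EV replicate 2 and 520.4 and 559.6 with H3.3-WT, and TNFRSF11B, the decoy receptor osteoprotegerin, was 1017, 1039 and 1137. TNFSF11, the osteoclast factor RANKL, was 2.86, 1.24 and 17.4 and untested. CSF1, the osteoclast growth factor M-CSF, was 2115, 1529 and 1685. SCUBE3 and TNFRSF11B were near the control at log2 fold changes of 0.01 and 0.10, CSF1 was lower in both H3.3-WT libraries at -0.40, and TNFSF11 was low in all 3 libraries. In the libraries titled H3.3-G34W SCUBE3 was 117 and 137, so taking groups from the genotype field would make the H3.3-WT group low in this gene. The paper reports SCUBE3 as lower in H3.3-G34W than in H3.3-WT cells, by sequencing and by qPCR. That is the direction the titles give. The paper's sequencing result comes from these same libraries, so only its qPCR is separate from the titles.

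Other functions varied in direction. Of 54 lists, 9 had both medians above those of all genes and 19 had both below. Taken against 0, where all genes themselves have opposite signs, 32 lists had medians of opposite sign in the 2 H3.3-WT libraries. Contractile and smooth-muscle genes stood at -0.29 and 0.36, interferon-stimulated genes at -0.25 and 0.15, and p53 targets at 0.12 and -0.25. Mitosis genes had medians of 0.08 and 0.04, with 14 of 42 above in both and 5 below in both, and CCNB1, the mitotic cyclin, was 10675 in EV replicate 2 and 13491 and 14081 with H3.3-WT. Histone methylation enzymes had medians of -0.07 and 0.11, with 10 of 35 above in both and 6 below in both. SUZ12, a subunit of the H3K27 methyltransferase complex, was 2545, 2213 and 2150, low in both H3.3-WT libraries at a log2 fold change of -0.22 with a standard error of 0.31.

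**Figure D3:**
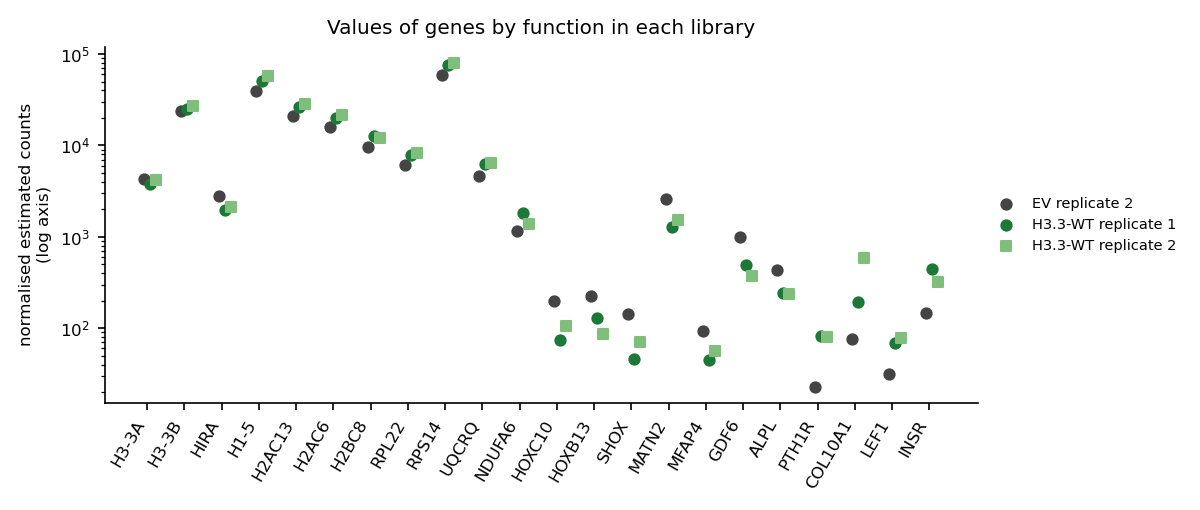
Signal of H3.3, histone, ribosomal, respiratory, patterning, matrix and signalling genes in EV replicate 2 and the 2 H3.3-WT libraries. H1-5 was 39707, 50464 and 57835, and ALPL was 428, 245 and 236.

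The largest single-gene distances included many gene models that are hard to count. Of the 30 genes furthest from the control, 15 in each direction, 14 were models likely to share reads with another model (readthroughs, pseudogenes, clone-named genes or genes of the MHC region), a class with 5.28% of all genes, 16.1% of those higher past 1.5-fold and 15.1% of those lower. PPP1R11, a phosphatase inhibitor in the MHC region, was listed at 0 in EV replicate 2 and at 237 and 114 with H3.3-WT. VASN was not counted in that class, but its gene lies inside CORO7 and a readthrough model. This TGF-beta-binding membrane protein was 1035, 158 and 23.3, and CORO7, an actin-associated protein, was 372, 497 and 388. The PPP1R11 and VASN distances were large in both H3.3-WT libraries, and how reads were divided between overlapping models was not tested.

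Genes outside that class with large distances included membrane and secreted proteins. IL24, a cytokine of the IL-10 family (ENSG00000162892, chr1:206897443-206904139), was 16.8 in EV replicate 2 and 85.4 and 80.9 with H3.3-WT. KCND2, a potassium channel (ENSG00000184408, chr7:120272908-120750337), was 186, 15.3 and 27.9. IL24 passed the limit on the mean through its H3.3-WT values and KCND2 through its control value. IL24 was high and KCND2 low in both H3.3-WT libraries, at log2 fold changes of 2.24 and -3.10 with standard errors of 0.94 and 1.01. NTRK3, a neurotrophin receptor, was 114, 29.3 and 8.40, and MYO5C, a myosin of secretory vesicles, was 266, 60.4 and 23.3. Both were low with H3.3-WT, at log2 fold changes of -2.77 and -2.79, and both passed the limit through their control values. All of these rest on the single control.

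Chromosomes 10 and 11 allowed the same comparison against both controls. With all 4 libraries, limma with Benjamini-Hochberg adjustment called 0 of 1251 genes higher and 0 lower, with 16 higher and 20 lower at an unadjusted p under 0.05. Both H3.3-WT libraries were above both EV libraries for 220 genes (17.6%) and below both for 196 (15.7%). Past 1.5-fold against EV replicate 1 alone were 47 higher (3.76%) and 43 lower (3.44%). Of 20 genes higher past 1.5-fold against EV replicate 2, 15 lay on the same side of EV replicate 1 and 8 passed 1.5-fold there too, or 40%. Of 24 lower, 20 lay on the same side and 12 passed, or 50%. Both comparisons use the same H3.3-WT libraries, so part of this sharing would arise without any effect of H3.3-WT, and its size was not estimated.

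AKR1C1, an aldo-keto reductase of steroid and aldehyde metabolism (ENSG00000187134, chr10:4963415-4983283), was 13.3 and 19.9 in the EV replicates and 71.6 and 87.9 in the H3.3-WT replicates. Its near-identical neighbour AKR1C2 was 11.2 and 41.9 in the EV replicates and 39.2 and 35.7 in the H3.3-WT replicates, so the split between them is uncertain. RBM20, a splicing regulator, was 40.6 and 32.8 against 76.5 and 78.5. Both genes were under 50 in each control and passed the limit through their H3.3-WT values. AKR1C1 and RBM20 were high in both H3.3-WT libraries, at 4-library log2 fold changes of 2.22 and 1.07. MMP3, stromelysin, was 21.6 and 44.7 against 73 and 772, and SFMBT2, a Polycomb-group protein, was 8.11 and 5.95 against 19.1 and 158. Both were under 50 in each control and above the controls in each H3.3-WT library, with replicate 2 far above replicate 1.

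CD248, a surface glycoprotein of mesenchymal cells (ENSG00000174807, chr11:66314494-66317044), was 356 and 418 in the EV replicates and 226 and 228 in the H3.3-WT replicates. UCP2, a mitochondrial inner-membrane carrier, was 172 and 129 against 58.3 and 72.7, and PAOX, a polyamine oxidase, was 369.9 and 412 against 205 and 197. All 3 were low in both H3.3-WT libraries, at 4-library log2 fold changes of -0.76, -1.18 and -0.96. TECTA, a matrix protein of the inner ear, showed the limit of a single control at 31.1 and 132 in the EV replicates and 39.9 and 11.6 in the H3.3-WT replicates. It was far below EV replicate 2 in both H3.3-WT libraries, but the EV replicates were themselves apart. IFITM2, an antiviral membrane protein, was 1617 and 2962 against 2000 and 1279, and EV replicate 1 lay between the H3.3-WT values.

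**Figure D4:**
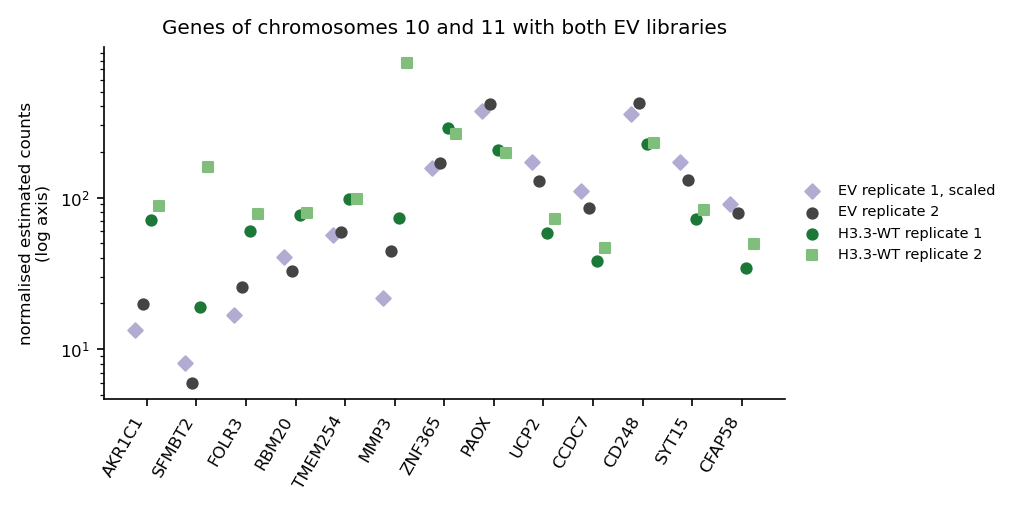
Signal of genes on chromosomes 10 and 11 in the scaled EV replicate 1, EV replicate 2 and the 2 H3.3-WT libraries. AKR1C1 was 13.3 and 19.9 against 71.6 and 87.9, and CD248 was 356 and 418 against 226 and 228.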

How the data were processed

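The deposited table held normalised estimated counts per gene, here called signal, from the authors, who used kallisto, tximport and DESeq2 on GRCh38. Since counts before normalisation were not used here, log2 of the value plus 1 was fitted with limma 3.58.1 (trend) in R 4.3.3 and adjusted by Benjamini-Hochberg. Genes needed a mean over 50 across EV replicate 2 and both H3.3-WT libraries. EV replicate 1 was left out genome-wide, and chromosomes came from an annotation holding 99.05% of identifiers. EV replicate 1 was divided by 23.8 on chromosomes 10 and 11. Fold counts required more than 1.5-fold in both H3.3-WT libraries. Named genes were the 15 furthest from the control in each direction, up to 4 per list and direction and 8 per direction on chromosomes 10 and 11, with H3.3, marker and resorption genes given by name. Members and lists were chosen with earlier results of these data known. Alternatives changed pseudocount, limit, fold, scaling and libraries, and those on gene models sharing reads and on EV replicate 1 in list medians were chosen after the data were seen.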

Additional observations from a re-analysis of the deposited data

How the results depend on the processing

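The genome-wide limma count of 1 higher and 0 lower became 0 higher without a filter, 3 higher and 1 lower with no variance trend and 2 higher after rescaling. With the spread pooled over the H3.3-G34W pair 1 gene was again higher, but it was PPP1R11 and not RPL3P4. Leaving out an H3.3-WT library gave 4 to 6 higher and 5 to 13 lower, but this sets 1 library against 1 and takes its spread from the H3.3-G34W pair alone, so it assumes that the lone libraries vary as that pair does and supports no call. With gene models that share reads left out, an alternative chosen after the data were seen, it was 0 higher.

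Fold counts of 242 higher and 272 lower were 721 and 784 at a looser fold limit, 88 and 73 at 2-fold, and 647 and 678 for means above 10. With a single H3.3-WT library they ranged from 644 to 1136 higher and from 919 to 1045 lower.

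On chromosomes 10 and 11 the replicate block gave 0 higher and 0 lower, and deviations of same-numbered libraries had a correlation of 0.029 over 1251 genes. That correlation rests on a single difference per group, which includes the rescaled EV replicate 1. It cannot show whether same-numbered libraries shared a culture or preparation, and the labels do not say. Leaving out a library gave 0 to 8 higher and 0 to 1 lower.

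The list medians hold small distances from a single control library, whose own departure enters every ratio, and they carry no test. With EV replicate 1 in place of EV replicate 2 for the members on chromosomes 10 and 11, an alternative chosen after the data were seen, 8 of 20 lists had a median of the other sign and 8 moved, each from few genes. Without H3.3-WT replicate 1, 14 of 55 medians (all genes counted as a list) had the other sign and 9 moved. Without H3.3-WT replicate 2 these counts were 19 and 10, after rescaling 6 and 3, and for means above 10 they were 4 and 4.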

Other observations

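Lipid genes were read in 2 lists. Of 18 fatty acid synthesis and storage genes, 8 were below EV replicate 2 in both H3.3-WT libraries and 2 above in both, with medians of -0.21 and -0.04, against 29.6% above and 24.7% below for all genes. Of 25 cholesterol biosynthesis genes 9 were above in both and 2 below in both, with medians of 0.04 and 0.15 close to the -0.04 and 0.10 of all genes, and the lists were not tested against each other. SCD, the stearoyl-CoA desaturase on chromosome 10, was 18608 and 17734 in the EV replicates and 14500 and 11544 in the H3.3-WT replicates, and FADS2, a fatty acid desaturase on chromosome 11, was 18034 and 16271 against 14190 and 9403. SREBF1, a transcription factor for both pathways, was 9782 in EV replicate 2 and 8473 and 5249 with H3.3-WT. SQLE, a cholesterol enzyme, was 2038, 3270 and 2802. The desaturases and SREBF1 were low and SQLE was high in both H3.3-WT libraries.

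Keratin genes lay on both sides of the control: of 9, 3 were above in both libraries and 2 below in both, with medians of -0.23 and 0.60. KRT34, a hair keratin, was 252 in EV replicate 2 and 507 and 716 with H3.3-WT, and KRT17, a stress-associated keratin, was 798, 1283 and 1303, both high with H3.3-WT. KRT8, a simple-epithelial keratin, was 21534, 14366 and 17238, low in both H3.3-WT libraries. Of 10 clustered protocadherins, cell-surface adhesion proteins, 5 were above in both libraries and 0 below in both, with medians of 0.06 and 0.25.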
